A study of Homo sapiens with 11 samples.

Results

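The annexin and S100 genes of 3 human lung cell lines are described here by their RNA level, and the S100A genes of chromosome 1 also by the chromatin domains listed over them. The genes were taken by symbol, as every annexin A gene and every S100A gene with a number, plus S100B, S100G, S100P and S100Z. This gave 31 genes, 12 annexins and 19 S100 genes, of 57815 genes listed per library. DMS153 and H209 come from small cell lung carcinoma, and MRC5, labelled normal, consists of lung fibroblasts. DMS153 and MRC5 have 3 RNA-seq libraries each and H209 has 2, and every line has 1 library of Hi-C, a method that maps which parts of the genome touch. The labels give all lines the same medium, RPMI with fetal bovine serum, and name no treatment other than crosslinking for Hi-C. Each group is 1 line, so carcinoma and cell lineage cannot be told apart. In bulk RNA, fewer cells of a type and less RNA per cell cannot be told apart either. The labels number the RNA replicates and do not state separate cultures, so the p-values measure how far these libraries spread, which may be technical.

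Annexins are cytosolic proteins that bind acidic phospholipids when calcium rises, and they take part in membrane repair, vesicle traffic and the link between membranes and actin. S100 proteins are small dimers with EF-hand calcium sites that change shape on binding calcium and then dock onto target proteins, annexins among them. The best known of these complexes joins annexin A2 to S100A10 beneath the plasma membrane, where it holds plasminogen and its activators at the cell surface. Most S100A genes lie in a cluster within the epidermal differentiation complex on the long arm of chromosome 1. Both families are known for high levels in fibroblasts and other mesenchymal cells, and some S100 proteins for restriction to leukocytes, keratinocytes or glia.

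Because the annexins and S100 genes with the highest RNA in the fibroblasts were lower in both carcinoma lines than there, promoters are shown, each from 250 bases before to 50 bases after the start of transcription. Sequences were taken from RefSeq (build GRCh38.p14), which held a promoter entry for 28 of the 31 genes, 39 entries in all. ANXA8, ANXA13 and S100B had none. Those printed are the 6 with the highest mean RNA in MRC5 among the genes lower in both carcinoma lines that have a single entry. Capitals mark 3 short motifs searched on both strands: TGACTCA or its other strand TGAGTCA (AP-1), GGAATG or CATTCC (TEAD) and GGGCGG or CCGCCC (SP1/KLF).
ANXA2, chr15:60397937-60398236, minus strand: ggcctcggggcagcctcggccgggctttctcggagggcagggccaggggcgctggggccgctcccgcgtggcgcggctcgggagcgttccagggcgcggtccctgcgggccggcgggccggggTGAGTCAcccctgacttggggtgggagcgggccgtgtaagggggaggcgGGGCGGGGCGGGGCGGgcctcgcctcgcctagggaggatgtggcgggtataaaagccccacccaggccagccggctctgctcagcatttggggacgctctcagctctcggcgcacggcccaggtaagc
ANXA5, chr4:121696931-121697230, minus strand: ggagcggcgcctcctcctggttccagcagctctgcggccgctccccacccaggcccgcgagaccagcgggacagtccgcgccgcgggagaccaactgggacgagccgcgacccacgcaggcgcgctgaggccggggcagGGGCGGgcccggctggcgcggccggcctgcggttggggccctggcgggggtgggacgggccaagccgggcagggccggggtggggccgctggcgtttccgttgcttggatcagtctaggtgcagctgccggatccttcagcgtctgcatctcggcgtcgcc
ANXA1, chr9:73151615-73151914, plus strand: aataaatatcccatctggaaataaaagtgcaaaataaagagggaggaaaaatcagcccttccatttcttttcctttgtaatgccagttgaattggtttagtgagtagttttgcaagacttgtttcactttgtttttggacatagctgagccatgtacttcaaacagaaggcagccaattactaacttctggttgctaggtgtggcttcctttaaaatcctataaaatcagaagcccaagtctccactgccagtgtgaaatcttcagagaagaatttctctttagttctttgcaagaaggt
S100A11, chr1:152036955-152037254, minus strand: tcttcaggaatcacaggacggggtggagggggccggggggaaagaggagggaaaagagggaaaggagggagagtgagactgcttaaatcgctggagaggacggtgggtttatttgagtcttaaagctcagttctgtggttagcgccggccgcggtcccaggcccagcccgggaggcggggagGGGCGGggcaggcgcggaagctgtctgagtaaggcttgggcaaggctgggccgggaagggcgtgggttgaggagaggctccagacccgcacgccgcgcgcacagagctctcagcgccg
S100A10, chr1:151993810-151994109, minus strand: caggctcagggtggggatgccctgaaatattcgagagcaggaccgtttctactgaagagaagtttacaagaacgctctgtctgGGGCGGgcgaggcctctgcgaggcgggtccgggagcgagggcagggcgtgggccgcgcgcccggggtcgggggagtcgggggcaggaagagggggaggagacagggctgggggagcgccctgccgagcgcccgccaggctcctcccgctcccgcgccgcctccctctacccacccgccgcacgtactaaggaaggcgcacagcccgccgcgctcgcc
S100A6, chr1:153535942-153536241, minus strand: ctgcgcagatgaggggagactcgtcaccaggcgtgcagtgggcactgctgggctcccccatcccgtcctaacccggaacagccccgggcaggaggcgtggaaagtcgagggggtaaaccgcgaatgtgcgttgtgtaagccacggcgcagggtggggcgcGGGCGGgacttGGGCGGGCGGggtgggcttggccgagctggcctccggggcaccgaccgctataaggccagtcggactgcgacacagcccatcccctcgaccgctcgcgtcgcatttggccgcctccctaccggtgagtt

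The ANXA2 promoter held the letters TGAGTCA once, with the first base at -127 from the start, and GGGCGG at -78, -73 and -68, in overlapping copies. GGGCGG stood at -111 in the ANXA5 promoter, at -68 in that of S100A11, at -167 in that of S100A10, and at -90, -79 and -75 in that of S100A6, where the last pair overlaps. The ANXA1 promoter held none of the 3 motifs and is printed without capitals. It was also the poorest of the 6 in G and C, at 37.7%, against 65.3% to 76.3% in the others. GGGCGG or its other strand occurred in 45.0% of all 35116 promoters of the same length, TEAD letters in 14.0% and AP-1 letters in 4.95%. Among the 19 entries of the 12 genes lower in both carcinoma lines, 12 held GGGCGG, 2 the AP-1 letters and 2 the TEAD letters. Among the 20 entries of the other matched genes the counts were 2, 2 and 1. These 20 entries belong to 16 genes, most of them too low in every line to be tested, such as S100A8, S100A12 and ANXA10. The 2 sets thus also differ in RNA level, and the part of this was not tested. Entries of the same gene are counted separately. The ratio of observed to expected CpG was a median of 0.70 in the first set, 0.19 in the second and 0.58 over all promoters. ANXA7, which was called in no comparison of the lines, also held GGGCGG, in 3 places. A match describes letters in this window only.

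RNA levels are in FPKM as deposited, that is, sequenced fragments divided by the length of the transcript and by the mapped fragments of the library. Of the 31 genes, 18 reached 1 FPKM in at least 2 libraries and were tested, 9 annexins and 9 S100 genes. Of these, 11 reached 1 FPKM in libraries of all 3 lines, 4 in libraries of 2 lines and 3 in libraries of 1 line only. The last 3 are S100A16 and S100A3, which passed through MRC5, and S100A5, which passed through DMS153, so a difference was built into their entry. Of the 4, ANXA9 and S100A14 reached 1 FPKM in no MRC5 library, and ANXA1 and ANXA6 in no DMS153 library. Fold changes are on the scale of log2(FPKM + 1), which understates the change of low genes, and come with their SE from limma. Genes count as called, higher or lower, where p stayed below 0.05 after Benjamini-Hochberg adjustment over the 19066 tested genes and the fold change was 1 log2 unit or more in size, the minimum fold.

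The libraries carried the markers of their labels. All 9 neuroendocrine markers, such as CHGA and SYP, averaged at least 1 FPKM in DMS153 and in H209 and none did in MRC5, where GRP, INSM1 and NEUROD1 were listed at 0. Their sum was 2071 to 2229 FPKM in DMS153 libraries, 1338 to 1339 FPKM in H209 libraries and at most 0.283 FPKM in MRC5 libraries. The 9 fibroblast markers, such as VIM and COL1A1, summed to 10.4 to 11.1 FPKM in DMS153, 34.7 to 38.6 FPKM in H209 and 9741 to 10762 FPKM in MRC5. The 7 squamous markers summed to at most 9.32 FPKM in any library and the 3 endothelial markers listed to at most 0.857 FPKM. The relative depth of the libraries, estimated from low values, was 0.949 to 1.65 times that of MRC5 replicate 1. Annexin and S100 values came with a deposited confidence interval that had a median half-width of 4.02% of the value above 100 FPKM, 5.82% at 10 to 100 FPKM and 18.1% at 1 to 10 FPKM, and describes 1 library only. Loci of microRNAs held 39.9% to 44.1% of the summed FPKM of DMS153 libraries and at most 0.0450% of the others. The part of this difference in the levels was not tested. Fold changes against MRC5 depended on how libraries are scaled in both carcinoma lines. The median log2 fold change of all genes against MRC5 was 0.44 in DMS153 and 0.46 in H209, and moved between -0.03 and 0.67 and between 0.03 and 0.70 under other scalings. Between DMS153 and H209 it stood at -0.04 and moved between -0.60 and 0.05.

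ANXA1, ANXA2, ANXA4, ANXA5, ANXA6 and ANXA11 were lower in both carcinoma lines than in the fibroblasts, and ANXA1 fell by 7.93 log2 units in DMS153, whereas ANXA7 stood between 57.6 and 69.1 FPKM in every library. Of the 9 annexins tested, 7 were lower and none higher in DMS153, and 6 were lower and 1 higher in H209. Over both families, 13 of 18 tested genes were lower and 2 higher in DMS153, where 16.4% of all genes tested were lower and 34% higher. In H209, 12 of 18 were lower and 2 higher, where 14.9% of all genes were lower and 33% higher. These counts describe the genes and include those that passed the filter through 1 or 2 lines. Of the 11 genes at 1 FPKM in libraries of every line, 9 were lower and 0 higher in DMS153, and 8 were lower and 1 higher in H209. The median log2 fold change of the 18 genes was -1.75 in DMS153 and -2.13 in H209, beside the medians of all genes given above. The scaling bears on the background: the split of all genes into higher and lower was 6489 and 3123 in DMS153, but 5103 and 4403 after median ratio scaling, 4242 and 4432 after quantile normalization and 5651 and 4422 after TPM scaling. In H209 it was 6300 and 2839, but 4282 and 4323 after median ratio scaling and 4086 and 3800 after quantile normalization. TPM scaling widened the H209 split, to 7939 and 2689. Leaving small RNA and mitochondrial genes out of the scaling widened the split to 7648 and 2479 in DMS153 and 7254 and 2431 in H209. The share of all genes called lower stayed between 13.002% and 23.2% in DMS153 and between 12.8% and 22.7% in H209 under these scalings. The same 12 genes were lower in both lines, which share the MRC5 libraries as control: ANXA1, ANXA2, ANXA4, ANXA5, ANXA6 and ANXA11, and S100A3, S100A6, S100A10, S100A11, S100A13 and S100A16. All but S100A3 stayed lower in both lines under every alternative that gave a value. Genes lower in both lines were not counted over all genes tested, so the overlap of these 12 is a description.

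**Figure D1:**
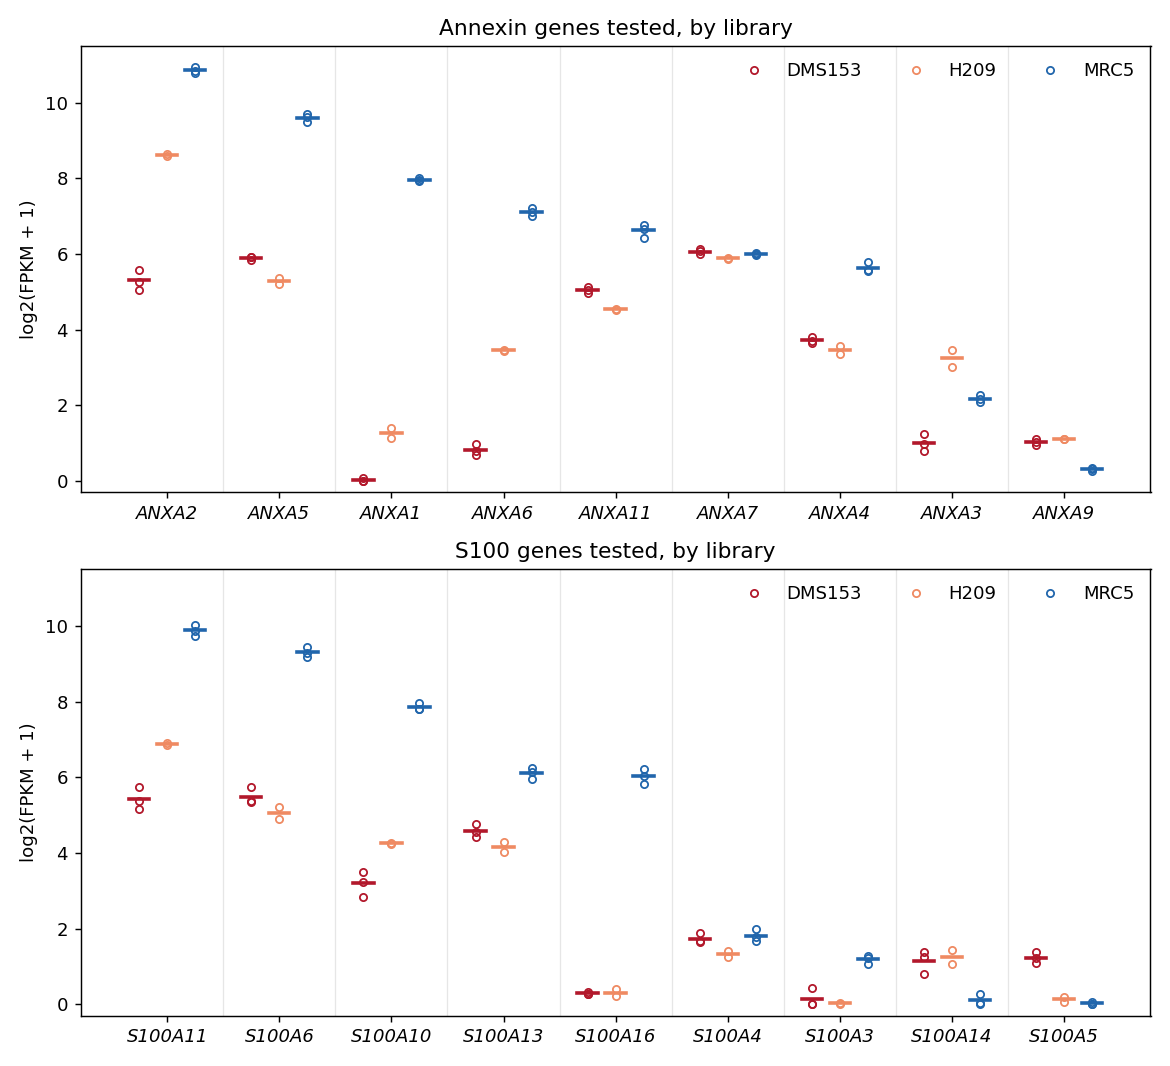
RNA level as log2(FPKM + 1) of the 9 annexins (top) and 9 S100 genes (bottom) tested, with 1 circle per library and a bar at the mean of DMS153 (3 libraries), H209 (2) and MRC5 (3). MRC5 libraries lie above all others for 12 genes, ANXA7 stays between 57.6 and 69.1 FPKM, and ANXA2, ANXA6 and ANXA1 separate DMS153 from H209.

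ANXA2 (ENSG00000182718.12, chromosome 15, 60639333 to 60695082 in hg19), the partner of S100A10 and a receptor for tissue plasminogen activator, had the highest RNA of both families in H209 and in MRC5. It stood at 32.1, 37.6 and 47.0 FPKM in the DMS153 libraries, at 387 and 398 FPKM in the H209 libraries and at 1829, 1978 and 1757 FPKM in the MRC5 libraries. The 3 lines did not overlap, and H209 lay between the other lines. On the log2 scale the change was -5.55 ± 0.12 in DMS153 (limma adjusted p = 2.67e-10) and -2.24 ± 0.14 in H209 (3.13e-07) against MRC5.

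ANXA5 (ENSG00000164111.10, chromosome 4, 122589110 to 122618268), which binds phosphatidylserine and is used as a probe of dying cells, had 60.1, 56.1 and 60.01 FPKM in DMS153, 36.2 and 40.6 FPKM in H209 and 720, 828 and 788 FPKM in MRC5. Its level was an order of magnitude lower in both carcinoma lines, and the carcinoma lines themselves did not overlap, DMS153 being the higher. Against MRC5 the log2 fold change was -3.70 ± 0.07 in DMS153 (adjusted p = 1.53e-10) and -4.31 ± 0.08 in H209 (2.12e-10).

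ANXA1 (ENSG00000135046.9, chromosome 9, 75766673 to 75785309), an anti-inflammatory protein induced by glucocorticoids, was close to absent from DMS153. The DMS153 libraries had 0.0583, 0.00118 and 0 FPKM, the H209 libraries 1.62 and 1.19 FPKM and the MRC5 libraries 256, 247 and 241 FPKM. Its fall was the largest of the 18 genes in both lines, at -7.93 ± 0.08 log2 units in DMS153 (limma adjusted p = 3.37e-12) and -6.70 ± 0.09 in H209 (3.97e-11). S100A11, to which annexin A1 binds, stood at 35.0 FPKM or more in every library, so that in DMS153 annexin A1 RNA was near 0 and that of its partner was not.

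ANXA6 (ENSG00000197043.9, chromosome 5, 150480273 to 150537443), which carries a duplicated annexin core and acts at the plasma membrane and late endosomes, had 0.624, 0.738 and 0.955 FPKM in DMS153, 9.93 and 9.99 FPKM in H209 and 128, 147 and 138 FPKM in MRC5. As with ANXA2, the lines did not overlap and H209 was intermediate. ANXA6 had a log2 fold change of -6.29 ± 0.09 in DMS153 (adjusted p = 1.55e-11) and of -3.66 ± 0.10 in H209 (1.24e-09).

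ANXA11 and ANXA4 changed less. ANXA11 (ENSG00000122359.13, chromosome 10, 81910645 to 81965328), which tethers RNA granules to lysosomes and binds S100A6, had 31.9, 30.6 and 33.9 FPKM in DMS153, 22.6 and 21.9 FPKM in H209 and 85.6, 108 and 100.2 FPKM in MRC5. The carcinoma libraries were all below the fibroblast libraries, with a log2 fold change of -1.57 ± 0.09 in DMS153 (adjusted p = 1.51e-07) and -2.09 ± 0.10 in H209 (5.81e-08). ANXA4 (ENSG00000196975.10, chromosome 2, 69871557 to 70053596), known from secretory epithelia, had 11.6, 12.0 and 12.97 FPKM in DMS153, 9.34 and 10.9 FPKM in H209 and 46.5, 54.8 and 45.9 FPKM in MRC5. MRC5 was again apart, and the log2 fold change of ANXA4 was -1.92 ± 0.09 in DMS153 (4.23e-08) and -2.17 ± 0.10 in H209 (5.08e-08). The value of ANXA4 in DMS153 replicate 1 carried a failed status, with a deposited interval that does not include it, and its locus overlaps AAK1 by 29925 bp.

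ANXA7 (ENSG00000138279.11, chromosome 10, 75134859 to 75173834), also called synexin and first known from the fusion of secretory granules, was called in no comparison. Its levels were 62.9, 66.3 and 69.1 FPKM in DMS153, 57.6 and 58.5 FPKM in H209 and 63.3, 64.2 and 62.2 FPKM in MRC5. DMS153 and MRC5 libraries overlapped and the H209 libraries were just below both, with log2 fold changes of 0.06 ± 0.06 in DMS153 (adjusted p = 0.324) and -0.12 ± 0.06 in H209 (0.106). It was the highest annexin in DMS153. The sign of these small values flips with the scaling, and over 4 scalings they ranged from -0.41 to 0.37 in DMS153 and from -0.73 to 0.11 in H209, short of the minimum fold.

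ANXA3 went in opposite directions in the carcinoma lines. ANXA3 (ENSG00000138772.8, chromosome 4, 79472673 to 79531597), an annexin of neutrophils and epithelia, had 0.731, 0.983 and 1.37 FPKM in DMS153, 10.1 and 7.13 FPKM in H209 and 3.50, 3.82 and 3.24 FPKM in MRC5. The lines did not overlap, with DMS153 lowest and H209 highest. The log2 fold change against MRC5 was -1.17 ± 0.15 in DMS153 (adjusted p = 4.59e-05) and 1.07 ± 0.16 in H209 (0.000196), and both were called. The rise in H209 missed the minimum fold at 0.55 after median ratio scaling, 0.48 after quantile normalization and 0.85 without H209 replicate 1. The fall in DMS153 missed it at -0.96 with scaling without small RNA and mitochondrial genes.

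ANXA9 (ENSG00000143412.5, chromosome 1, 150954493 to 150968110), whose core has lost its calcium sites, was low throughout. It stood at 0.919, 1.15 and 1.03 FPKM in DMS153, 1.17 and 1.17 FPKM in H209 and 0.206, 0.239 and 0.275 FPKM in MRC5. Every carcinoma library was above every fibroblast library. ANXA9 entered the test through the carcinoma lines alone, so its log2 fold changes of 0.71 ± 0.07 in DMS153 and 0.81 ± 0.08 in H209 are descriptions. Both missed the minimum fold. With a pseudocount of 0.1 they were 1.74 and 1.91, and after quantile normalization their sign flipped, to -0.22 and -0.0038. ANXA8, ANXA10 and ANXA13 stayed at or below 0.125 FPKM in all libraries and were not tested.

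**Figure D2:**
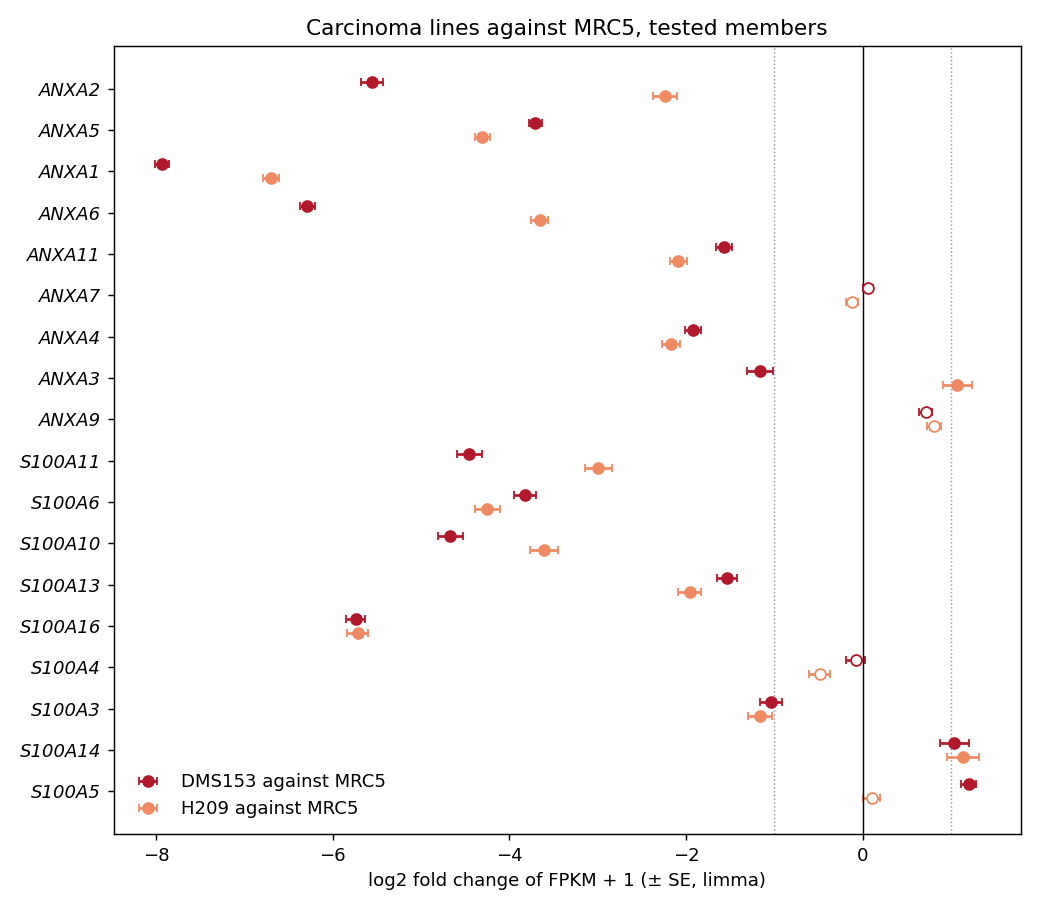
Log2 fold change of FPKM + 1 against MRC5 for the 18 tested genes in DMS153 (dark red) and H209 (orange), with bars of 1 SE from limma. Filled points were called, open points were not, and dotted lines mark a log2 fold change of -1 and 1; ANXA1 lies farthest to the left, at -7.93 and -6.70, and ANXA3 on either side of 0, except that its place in H209 missed the minimum fold under 2 scalings.

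S100A6, S100A10, S100A11 and S100A13 were lower in both carcinoma lines, and so, among the genes that passed the filter through MRC5 alone, were S100A3 and S100A16. Of the 9 S100 genes tested, 6 were lower and 2 higher in DMS153, and 6 were lower and 1 higher in H209. Over all genes tested, 16.4% were lower and 34% higher in DMS153, and 14.9% and 33% in H209. S100A11 (ENSG00000163191.5, chromosome 1, 152004982 to 152020383), the partner of annexin A1 and also of annexin A2, was the S100 gene with the highest RNA in H209 and MRC5. It had 40.2, 35.0 and 52.9 FPKM in DMS153, 115 and 119.7 FPKM in H209 and 852, 1050.1 and 932 FPKM in MRC5. The lines did not overlap, in the order seen for ANXA2 and ANXA6. Its log2 fold change was -4.45 ± 0.14 in DMS153 (adjusted p = 2.63e-09) and -2.99 ± 0.16 in H209 (1.09e-07).

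S100A10 (ENSG00000197747.4, chromosome 1, 151955391 to 151966866), which has lost calcium binding and is the partner of annexin A2, had 8.36, 6.19 and 10.4 FPKM in DMS153, 17.9 and 18.2 FPKM in H209 and 224, 248 and 223 FPKM in MRC5. Again DMS153 was lowest and H209 between it and MRC5. S100A10 changed at -4.67 ± 0.14 in DMS153 (adjusted p = 2.20e-09) and -3.61 ± 0.16 in H209 (3.60e-08). The FPKM of ANXA2 divided by that of S100A10 within a library, which no scaling factor of the library can change, was 3.84, 6.08 and 4.53 in DMS153, 21.6 and 21.8 in H209 and 8.15, 7.99 and 7.87 in MRC5. The 3 lines thus differed in this ratio without overlap, H209 having the most ANXA2 per S100A10.

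S100A6 (ENSG00000197956.5, chromosome 1, 153507075 to 153508720), or calcyclin, a partner of annexin A11 and of a ubiquitin ligase adaptor, had 39.4, 40.8 and 52.2 FPKM in DMS153, 35.8 and 29.0 FPKM in H209 and 619.6, 695 and 582 FPKM in MRC5. The carcinoma lines were close to each other and both far below MRC5, with a log2 fold change of -3.82 ± 0.12 in DMS153 (adjusted p = 3.34e-09) and -4.25 ± 0.14 in H209 (4.91e-09).

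S100A16 and S100A13 lie at the far end of the cluster, with S100A14 between them. S100A16 (ENSG00000188643.6, chromosome 1, 153579362 to 153585621), a widely expressed S100 protein, had 0.247, 0.202 and 0.213 FPKM in DMS153, 0.169 and 0.312 FPKM in H209 and 55.7, 74.1 and 64.2 FPKM in MRC5. It was tested only through its MRC5 values, and its log2 fold change of -5.74 ± 0.11 in DMS153 and -5.72 ± 0.12 in H209 is given as a description. S100A13 (ENSG00000189171.9, chromosome 1, 153591263 to 153606568), which takes part in the release of fibroblast growth factor from cells, had 20.6, 22.5 and 26.4 FPKM in DMS153, 15.3 and 18.6 FPKM in H209 and 61.3, 75.6 and 69.6 FPKM in MRC5. All carcinoma libraries lay below all fibroblast libraries, with a log2 fold change of -1.53 ± 0.12 in DMS153 (adjusted p = 1.21e-06) and -1.96 ± 0.13 in H209 (5.55e-07). So the RNA of S100A16 was at most 0.312 FPKM in the carcinoma libraries, where that of S100A13 was at least 15.3 FPKM.

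S100A4 (ENSG00000196154.7, chromosome 1, 153516089 to 153522612), which binds nonmuscle myosin and whose mouse protein has served as a fibroblast marker, was low in all lines. It had 2.22, 2.13 and 2.68 FPKM in DMS153, 1.38 and 1.65 FPKM in H209 and 2.97, 2.21 and 2.42 FPKM in MRC5. DMS153 and MRC5 libraries overlapped, and neither log2 fold change, -0.08 ± 0.11 in DMS153 (adjusted p = 0.503) and -0.49 ± 0.12 in H209 (0.00388), reached the minimum. The first flips sign with scaling without small RNA and mitochondrial genes or without MRC5 replicate 1. The second was -1.195 and called after quantile normalization.

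S100A3, S100A5 and S100A14 were near the detection limit. S100A3 (ENSG00000188015.5, chromosome 1, 153519805 to 153521848), known from the hair cuticle, lies inside the locus of S100A4, and the strand of the reads is not given in the sources used here. It had at most 0.359 FPKM in DMS153, 0.00616 and 0.0330 FPKM in H209 and 1.09, 1.34 and 1.41 FPKM in MRC5. It too passed the filter through MRC5 alone, so its log2 fold changes of -1.04 ± 0.12 and -1.16 ± 0.14 are descriptions. The value in DMS153 missed the minimum fold at -0.97 without DMS153 replicate 1 or replicate 2, at -0.999 without MRC5 replicate 3 and at -0.93 with scaling without small RNA and mitochondrial genes.

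S100A14 (ENSG00000189334.4, chromosome 1, 153586731 to 153589462), an S100 protein of epithelia, reached 1 FPKM in 2 DMS153 and 2 H209 libraries and in 0 MRC5 libraries, so it entered the test through the carcinoma lines alone and its fold changes are descriptions. It had 1.39, 1.597 and 0.752 FPKM in DMS153, 1.71 and 1.08 FPKM in H209 and 0, 0.0329 and 0.217 FPKM in MRC5. All carcinoma libraries lay above all fibroblast libraries, and the log2 fold change was 1.04 ± 0.16 in DMS153 and 1.14 ± 0.18 in H209. After median ratio scaling the values were 0.94 and 0.95, and after quantile normalization 0.34 and 0.54. The DMS153 value also missed the minimum fold without DMS153 replicate 1 or 2 or MRC5 replicate 1 (lowest value 0.92), and the H209 value without H209 replicate 1 (0.95). The 6 lung epithelial markers, EPCAM and CDH1 among them, summed to 1153 to 1244 FPKM in DMS153, 944 to 954 FPKM in H209 and 94.9 to 106 FPKM in MRC5, and their part in this result was not tested.

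S100A5 (ENSG00000196420.3, chromosome 1, 153509623 to 153514241), known from olfactory neurons, had 1.33, 1.13 and 1.596 FPKM in DMS153, 0.135 and 0.0524 FPKM in H209 and at most 0.0389 FPKM in MRC5. It was tested through DMS153 alone, and its log2 fold change of 1.2005 ± 0.08 against MRC5 there is a description. In H209 the value was 0.10 ± 0.09 (adjusted p = 0.342), and its sign flipped, to -0.27, after quantile normalization.

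Of the 10 S100 genes that were not tested, S100B had the highest value. S100B, a product of glia and also of some neuroendocrine cells, had 0.823, 1.14 and 0.870 FPKM in DMS153, 0.0315 and 0.0428 FPKM in H209 and was listed at 0 in all MRC5 libraries. The other 12 untested genes of both families stayed under 1 FPKM in every library, 4 of them under 0.100. SOX10, which defines Schwann cells and melanocytes, was at most 0.213 FPKM in any library. The 5 glial markers summed to 14.0 to 14.5 FPKM in DMS153, 21.7 to 24.1 FPKM in H209 and 0.896 to 1.48 FPKM in MRC5.

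S100A1, known from heart muscle, had 0.146, 0.281 and 0.265 FPKM in DMS153, 0.702 and 0.681 FPKM in H209 and 0.382, 0.357 and 0.367 FPKM in MRC5. Its locus lies inside that of S100A13, with an overlap of 4112 bp, so reads of both can be shared. S100A2, a keratinocyte protein, ranged over 0.463 to 0.594 FPKM in DMS153, 0.379 and 0.403 FPKM in H209 and 0.436 to 0.857 FPKM in MRC5. DMS153 and MRC5 libraries overlapped for S100A2, and both H209 libraries were below them.

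The myeloid S100 genes were close to absent. S100A8 and S100A9, whose proteins form calprotectin in neutrophils and monocytes, were listed at 0 in 7 and in 4 of the 8 libraries, and their highest values were 0.0726 and 0.617 FPKM, both in H209. S100A12 did not exceed 0.0166 FPKM and S100A7, the psoriasin of keratinocytes, 0.0887 FPKM. The 10 myeloid markers summed to at most 3.31 FPKM in any library, with PTPRC at or below 0.0612 FPKM. S100P, S100Z and S100G, the vitamin D responsive calcium binder of intestine, reached at most 0.587, 0.414 and 0.0335 FPKM.

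The share of each gene in the summed FPKM of its family shows the make-up of the families without any scaling between libraries. Annexins summed to 201 to 226 FPKM in DMS153, 535 to 549 FPKM in H209 and 3132 to 3430.4 FPKM in MRC5. ANXA2 held 15.99% to 20.7% of that sum in DMS153, 72.2% to 72.4% in H209 and 56.04% to 58.4% in MRC5. ANXA7 held 30.5% to 32.2% in DMS153, 10.6% to 10.8% in H209 and 1.87% to 2.02% in MRC5, so the leading annexin of DMS153 was a minor one in MRC5. ANXA5 held 26.5% to 29.9%, 6.77% to 7.38% and 23.0% to 25.1% in DMS153, H209 and MRC5.

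S100 genes summed to 112 to 149.7 FPKM in DMS153, 189 to 191 FPKM in H209 and 1818 to 2147 FPKM in MRC5. S100A11 held 31.2% to 35.3% in DMS153, 61.0% to 62.7% in H209 and 46.9% to 49.7% in MRC5. S100A6 held 34.1% to 36.4% in DMS153, 15.2% to 18.9% in H209 and 31.0% to 34.1% in MRC5. H209 thus had the most one-sided make-up of both families, led by ANXA2 and S100A11.

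**Figure D3:**
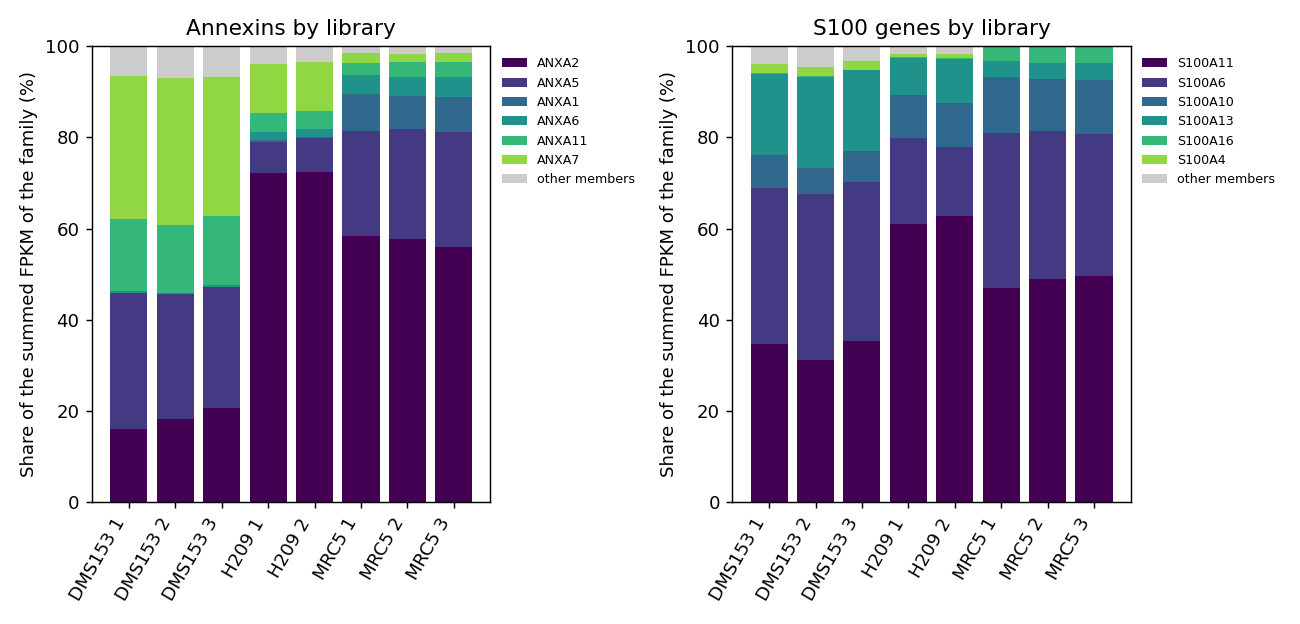
Share of each gene in the summed FPKM of the annexins (left) and of the S100 genes (right), as stacked bars from 0 to 100%, 1 bar per library. ANXA2 holds at most 20.7% of the annexin sum in DMS153, where ANXA7 takes at least 30.5%, and at least 72.2% in H209.

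ANXA2, ANXA6, ANXA3, S100A11, ANXA1 and S100A10 were lower in DMS153 than in H209. Of the 18 genes, 6 were lower and 1 higher in DMS153 than in H209, where 13.4% of all genes tested were lower and 13.8% higher. The median log2 fold change of the 18 was 0.05, beside -0.04 for all genes. Without a fold minimum 7 of the 18 were higher and 6 lower, beside 34.6% and 39.0% of all genes. Of the 11 genes at 1 FPKM in libraries of every line, 4 were lower and 0 higher. The split of all genes was 2622 higher and 2547 lower, and 1782 and 6319 after TPM scaling. ANXA2 was lower in DMS153 at a log2 fold change of -3.32 ± 0.14 (limma adjusted p = 7.48e-08), with a highest DMS153 library of 47.0 FPKM against a lowest H209 library of 387 FPKM. ANXA6 was lower at -2.63 ± 0.10 (3.66e-08) and ANXA3 at -2.24 ± 0.16 (2.42e-06). S100A11 was lower at -1.46 ± 0.16 (3.04e-05), ANXA1 at -1.23 ± 0.09 (2.71e-06) and S100A10 at -1.06 ± 0.16 (0.000283). In each of these genes all DMS153 libraries lay below both H209 libraries. The call of S100A10 was lost at -0.92 after median ratio scaling, at -0.89 without DMS153 replicate 2 and at -0.996 with scaling without small RNA and mitochondrial genes. The call of ANXA1 was lost at -0.98 after quantile normalization. S100A5, tested through DMS153 alone, had a log2 fold change of 1.10 ± 0.09, given as a description, and of 0.70 after quantile normalization. ANXA5 had a log2 fold change of 0.60 ± 0.08 (0.000158) and ANXA11 one of 0.51 ± 0.10 (0.00135), both short of the minimum fold, and with TPM scaling they were -0.04 and -0.12.

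Genes for proteins that work with annexin A2 and S100A10 or repair membranes were mostly lower in RNA as well. Of 19 such genes 18 were listed and 17 tested. Against MRC5, 3 of the 17 were higher and 11 lower in DMS153, and 1 was higher and 10 lower in H209. The median log2 fold change of the 17 was -1.86 in DMS153 and -1.75 in H209. The whole tested set had shares of 16.4% lower and 34% higher in DMS153, and of 14.9% lower and 33% higher in H209. CAV1 and CAV2, which form the coat of caveolae, averaged 0.175 ± 0.151 and 0.218 ± 0.0909 FPKM in DMS153, 0.0388 ± 0.0184 and 0.0151 ± 0.0182 FPKM in H209, and 278 ± 8.71 and 203 ± 18.8 FPKM in MRC5 (SD, n = 3, 2 and 3). Both passed the filter through MRC5 alone, so their log2 fold changes are descriptions. They were -7.90 ± 0.10 and -7.39 ± 0.09 in DMS153, and -8.07 ± 0.11 and -7.65 ± 0.10 in H209. HLTF, a helicase-like transcription factor, was higher in DMS153, at 82.9 ± 8.62 FPKM against 12.9 ± 0.677 FPKM in MRC5, a log2 fold change of 2.59 ± 0.10 (limma adjusted p = 8.48e-09). TRIM72, which seals membrane wounds in muscle, stood at 4.82 ± 0.531 FPKM in DMS153 against 0.000152 ± 7.99e-05 FPKM in MRC5. It passed the filter through DMS153 alone, so its log2 fold change of 2.54 ± 0.08 is a description. PDCD6, the calcium sensor ALG-2 that binds annexins, was higher in H209 at 221 ± 2.40 FPKM against 52.0 ± 4.40 FPKM in MRC5 (2.07 ± 0.09, 2.36e-08).

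Between the carcinoma lines 3 of the 17 were higher and 3 lower in DMS153, beside 13.8% and 13.4% of all genes tested. HLTF was higher, by 2.02 ± 0.11 log2 units (limma adjusted p = 3.65e-07). TRIM72, tested through DMS153 alone, had a log2 fold change of 2.34 ± 0.09, given as a description. CAPN1, a subunit of the calcium-activated protease calpain, and SNX1, a sorting nexin of endosomes, were lower at log2 fold changes of -1.51 ± 0.08 and -1.15 ± 0.10 (4.36e-07 and 9.72e-06).

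Genes of plasminogen activation at the cell surface, the system that annexin A2 and S100A10 serve, were lower in both lines. Of 8 tested, 7 were lower and 1 higher in DMS153 and in H209 alike, with medians of -4.60 and -5.12. Over all genes tested, 16.4% were lower and 34% higher in DMS153, and 14.9% and 33% in H209. PLAU, or urokinase, stood at 0.303 ± 0.0644 FPKM in DMS153, 1.35 ± 0.474 FPKM in H209 and 399 ± 13.9 FPKM in MRC5 (SD, n = 3, 2 and 3). The log2 fold change was -8.26 ± 0.10 in DMS153 (limma adjusted p = 1.04e-11) and -7.43 ± 0.12 in H209 (7.22e-11). The 1 higher gene in both lines was KRT8, an epithelial keratin that can bind plasminogen and is also among the lung epithelial markers, at 353 ± 25.7 FPKM in DMS153, 300.1 ± 7.61 FPKM in H209 and 24.6 ± 1.63 FPKM in MRC5. Between the carcinoma lines SERPINE2 and ENO1 were higher in DMS153, by 1.17 ± 0.13 and 1.03 ± 0.08 log2 units (4.32e-05 and 3.83e-06). None was lower, where 13.8% of all genes tested were higher and 13.4% lower.

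Of 12 receptors of S100 proteins and annexin A1, 8 were tested, and 5 were lower and 1 higher in DMS153, 3 lower and 1 higher in H209. Over all genes tested, 16.4% were lower and 34% higher in DMS153, and 14.9% and 33% in H209. The medians of the 8 receptors were -1.13 and -0.72. TLR4, a receptor of S100A8 and S100A9, was higher in DMS153 at 3.26 ± 0.389 FPKM (SD, n = 3) against 0.153 ± 0.0274 FPKM in H209 (n = 2) and 0.0129 ± 0.00306 FPKM in MRC5 (n = 3). TLR4 passed the filter through DMS153 alone, so its log2 fold changes of 2.07 ± 0.08 against MRC5 and 1.88 ± 0.09 against H209 are descriptions. AGER, the receptor of S100B and other S100 proteins, was higher in H209 at 9.84 ± 1.70 FPKM, with 2.81 ± 0.361 FPKM in DMS153 and 2.42 ± 0.532 FPKM in MRC5 (H209 against MRC5 1.67 ± 0.15, limma adjusted p = 5.86e-06). BSG, a receptor of S100A9, was at 70.8 ± 4.04 FPKM in DMS153, 226 ± 8.34 FPKM in H209 and 315 ± 23.6 FPKM in MRC5, and was called lower in DMS153 against MRC5 and against H209 (-2.14 ± 0.07, limma adjusted p = 4.86e-09, and -1.66 ± 0.08, 2.30e-07). CD68, a lysosomal glycoprotein, averaged 0.140 ± 0.0272 FPKM in DMS153, 0.705 ± 0.0349 FPKM in H209 and 27.0 ± 5.73 FPKM in MRC5. Between the carcinoma lines 1 receptor was higher in DMS153 and 2 were lower, beside 13.8% and 13.4% of all genes tested.

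Of 16 actin and myosin targets of S100A4 and annexins, all tested, 11 were lower in DMS153 and 8 in H209, with none higher. Over all genes tested, 16.4% were lower in DMS153 and 14.9% in H209, and 34% and 33% higher. The medians of the 16 were -1.52 and -1.51. Between the carcinoma lines 1 of them was higher and 3 lower in DMS153, beside 13.8% and 13.4% of all genes. TAGLN, an actin cross-linker of smooth muscle and fibroblasts, averaged 4.06 ± 0.164 FPKM in DMS153, 4.92 ± 0.541 FPKM in H209 and 1250 ± 160 FPKM in MRC5 (SD, n = 3, 2 and 3). CALD1, which encodes caldesmon, stood apart between the carcinoma lines, at 4.19 ± 0.899 FPKM in DMS153 against 0.163 ± 0.0267 FPKM in H209 (2.15 ± 0.13, limma adjusted p = 7.25e-07). Calcium proteins with EF hands outside the S100 family moved in both directions. Of 26 tested, 7 were higher and 10 lower in DMS153, 8 higher and 9 lower in H209, beside 34% higher and 16.4% lower of all genes in DMS153 and 33% and 14.9% in H209. The medians of the 26 were 0.11 and 0.00, and 5 were higher and 6 lower in DMS153 against H209, beside 13.8% and 13.4% of all genes. NCALD, a neuronal calcium sensor, averaged 23.3 ± 1.76 FPKM in DMS153, 16.4 ± 1.14 FPKM in H209 and 0.000302 ± 9.04e-05 FPKM in MRC5. HPCA, or hippocalcin, averaged 2.89 ± 0.248 FPKM in DMS153, 70.1 ± 4.38 FPKM in H209 and 0.100 ± 0.0164 FPKM in MRC5. CETN3, a centrin of the centrosome, averaged 18.7 ± 2.61 FPKM in DMS153, 0.0221 ± 0.0306 FPKM in H209 and 20.9 ± 0.773 FPKM in MRC5, so H209 alone was low. SPARC, a matrix protein, averaged 3.03 ± 0.439 FPKM in DMS153, 103 ± 12.2 FPKM in H209 and 1404 ± 43.0 FPKM in MRC5. The epidermal differentiation complex outside the cluster was nearly silent: of 7 fused-type S100 genes TCHH alone passed the filter, at 1.54 ± 0.372 FPKM in DMS153, 0.486 ± 0.0143 FPKM in H209 and 0.00741 ± 0.00648 FPKM in MRC5, and of 13 other genes SPRR1A alone, at 0.206 ± 0.0660 FPKM in DMS153, 3.18 ± 0.591 FPKM in H209 and 0 in MRC5. The fibroblast marker sums given above also separate the lines, and their part in these lists was not tested.

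The cluster of 13 S100A genes runs from S100A9 to S100A13, whose locus holds that of S100A1, over 276 kb of chromosome 1 (153330330 to 153606568 in hg19). S100A10 and S100A11 lie 1363 and 1310 kb before it. The Hi-C data give, for 1 library per line, a list of domains, stretches whose parts contact each other more than their surroundings, with 5023 domains in DMS153, 3987 in H209 and 3701 in MRC5. There is no replicate, so domains are described without a test.

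All 3 lists held the same domain over the first part of the cluster, from 153320000 to 153479998, a length of 160 kb. It holds S100A9, S100A12, S100A8 and S100A7, known from leukocytes and keratinocytes, which stayed under 1 FPKM in every library. Domains with both ends identical in the 3 lists numbered 939, or 18.7% of those in DMS153, 23.6% of those in H209 and 25.4% of those in MRC5. The shared boundary lies 46.8 kb after S100A7 and 27.1 kb before S100A6, so in every list it falls between these 4 genes and S100A6. Beyond it, S100A2 and S100A1 were also under 1 FPKM in every library.

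The lists differed over the second part. DMS153 had a domain from 153480000 to 153619998, 140 kb long, that holds the other 9 genes of the cluster and ends 15.485 kb after S100A1. H209 had no domain there. MRC5 had a domain from 153480000 to 153559998, 80 kb long, that holds S100A6, S100A5, S100A4, S100A3 and S100A2 and ends 19.4 kb before S100A16. S100A16, S100A14, S100A13 and S100A1 thus lay in no listed domain in MRC5 and in H209, and in 1 domain with S100A6 in DMS153. The ends of the second domain differed by 60 kb between DMS153 and MRC5, on a grid of 20 kb. On RNA, S100A6 before the MRC5 domain end and S100A16 and S100A13 after it were all lower in both carcinoma lines. S100A14, between S100A16 and S100A13, was not lower, and within the MRC5 domain S100A4 was called in neither line and S100A5 had higher values in DMS153. The deposited scores of these second domains were 1.871 in DMS153 and 1.931 in MRC5, below the medians of their lists, 2.22 and 2.518, and the meaning of the score is not stated.

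S100A10 lay within a domain in each list, from 151860000 to 151999998 in DMS153, 151900000 to 151979998 in H209 and 151900000 to 151999998 in MRC5. S100A11, its neighbour, ended at 152020383, just past the start of the next domain at 152020000, a margin far below the grid of 20 kb. It lay wholly in no domain of any list. Among other genes wholly within the cluster, 1 passed the filter, BX470102.3, which overlaps S100A6 by 517 bp. It had 1.57, 2.50 and 1.81 FPKM in DMS153, 0.0730 and 0.264 FPKM in H209 and 0.0522, 0.202 and 0.0814 FPKM in MRC5. BX470102.3 passed the filter through DMS153 alone, so its log2 fold changes are descriptions. They were 1.33 ± 0.14 in DMS153 against H209 and 1.40 ± 0.12 against MRC5, the latter opposite to S100A6. Reads of the overlap can be shared between both. At the far end 3 more tested genes overlap S100A13 and reach past its end. RP1-178F15.5, which overlaps S100A1 by 4112 bp and S100A13 by 7761 bp, had 0.0482, 0.123 and 0.343 FPKM in DMS153, 0.935 and 1.02 FPKM in H209 and 2.52, 3.33 and 3.36 FPKM in MRC5. It was called lower against MRC5 at -1.80 ± 0.12 in DMS153 (limma adjusted p = 4.29e-07) and -1.04 ± 0.13 in H209 (5.84e-05), the direction of S100A13. RP1-178F15.4 was not called, at -0.68 ± 0.14 in DMS153 and -0.14 ± 0.16 in H209. CHTOP, which overlaps S100A13 by 44 bp and encodes a chromatin and RNA export protein, was called higher, at 1.33 ± 0.06 in DMS153 (5.33e-08) and 1.10 ± 0.07 in H209 (5.25e-07). Copies of annexin and S100 genes, such as ANXA2P2 and S100A11P1, 9 in all, did not exceed 0.574 FPKM, and 2 of them, S100A7A and S100A7L2, lie within the cluster.

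**Figure D4:**
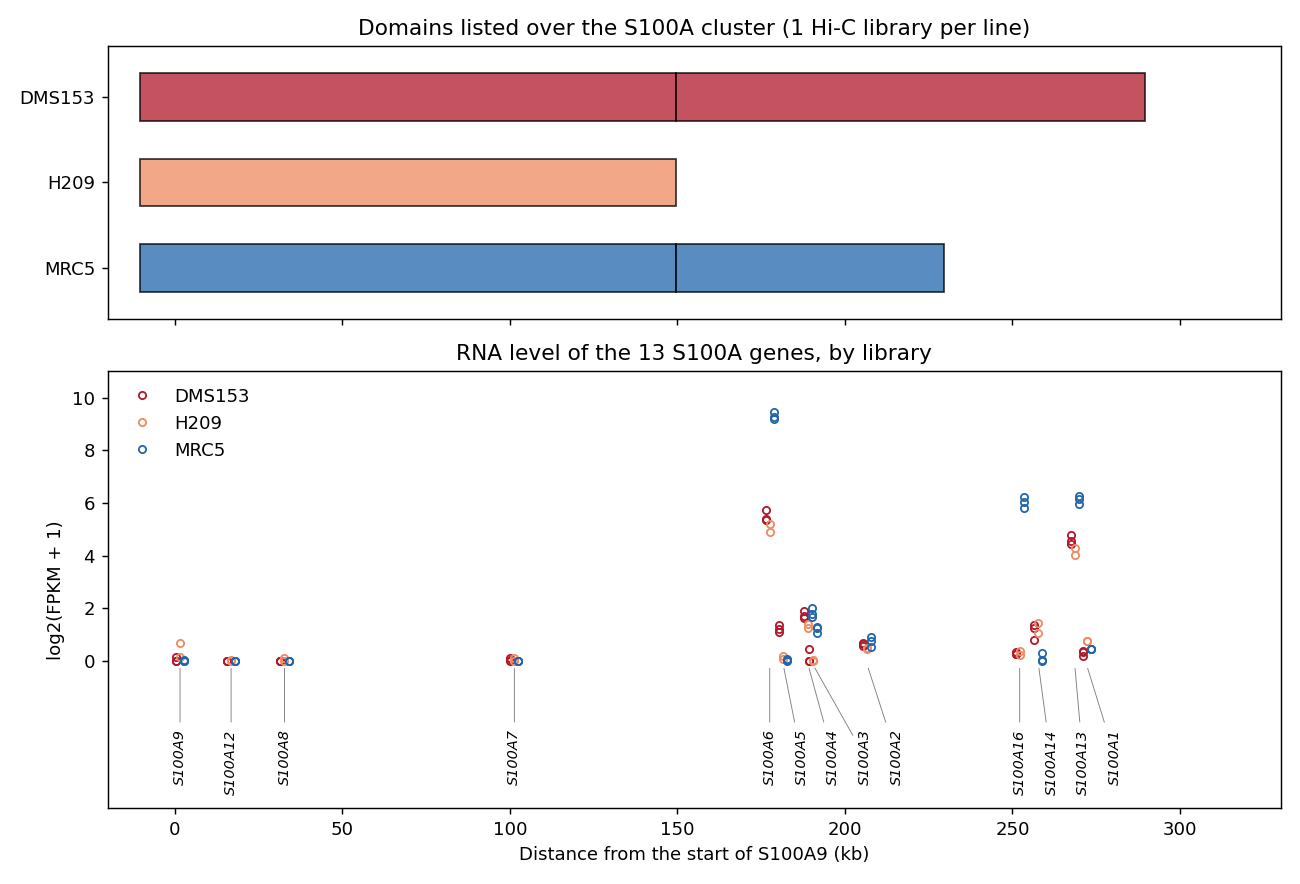
Domains listed over the S100A cluster in DMS153, H209 and MRC5 (top) and RNA level as log2(FPKM + 1) of its 13 genes, 1 circle per library (bottom), both against distance from the start of S100A9 in kb. The first domain is the same in the 3 lines and holds 4 genes under 1 FPKM, and the second is 140 kb long in DMS153, 80 kb in MRC5 and not listed in H209.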

How the data were processed

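The series holds 8 RNA-seq and 3 Hi-C libraries, 11 samples in all. RNA titled DM153 was taken as DMS153, the cell line its labels name. Per the file headers, the authors deposited FPKM per gene with a confidence interval and a status; the submitters' processing notes name TopHat2 2.1.0, Cufflinks 2.2.0, Bowtie2, HOMER 4.8 and hg19. How RNA was selected and whether strand was kept is not stated, so overlapping or antisense genes can share reads. The files hold no counts. The Hi-C tables list the start, end and a deposited score of each domain; the meaning of the score and the caller's settings are not stated.

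From these, log2(FPKM + 1) of the 19066 genes with at least 1 FPKM in at least 2 libraries was fitted in R 4.3.3 with limma 3.58.1, all 8 libraries in 1 fit with a mean per line, eBayes with a trend, tests 2-sided. The fit was tested on simulated data. Domain ends within 20 kb were merged and called shared within 40 kb, and a domain's counterpart needed 80% reciprocal overlap. Members, lists and tests were chosen with earlier results of these data known. Every member is accounted for; from each list up to 2 called genes with the largest rise and up to 2 with the largest fall per comparison could be named, and at the cluster every other tested gene. Alternatives covered the pseudocount, the filter, the scaling, the failed-status genes, the fold minimum, the replicate block, single libraries left out, and the score, overlap and distance used for domains. Some genes of the fixed lists are counted but not reported by name here.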

Additional observations from a re-analysis of the deposited data

Results flagged for a closer look

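Between the carcinoma lines, 7 genes had changes against the same MRC5 libraries that differed by the test of DMS153 against H209 itself. ANXA2 differed by a log2 fold change of -3.32, ANXA6 by -2.63, ANXA3 by -2.24, S100A11 by -1.46, ANXA1 by -1.23, S100A10 by -1.06 and S100A5 by 1.10, the last being the only one higher in DMS153 and tested through its DMS153 values alone. In ANXA3 the changes of the lines against MRC5 had opposite signs, -1.17 in DMS153 and 1.07 in H209. In the other lower genes both lines were below MRC5 and DMS153 was the lower. Loci of microRNAs held 39.9% to 44.1% of the summed FPKM in DMS153 libraries and at most 0.0450% in the others, and the part of this difference in the results was not tested. With scaling without small RNA and mitochondrial genes all but S100A10 remained called, S100A10 standing at -0.996 there.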

How the results depend on the processing

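No called value of a gene changed sign under any alternative: of 1119 values of single genes, 1061 kept their direction and their side of the threshold, 22 lost a call, 15 gained one, and 21 that were not called changed sign. Genes lower numbered 12 to 13 (DMS153 against MRC5), 12 (H209 against MRC5) and 5 to 6 (DMS153 against H209) with single libraries left out, and genes higher 1 to 2, 0 to 2 and 1. The counts of genes higher, 2, 2 and 1 as reported, were 0, 1 and 0 with a filter on a mean of 1 FPKM and 0 in all 3 comparisons after quantile normalization. After median ratio scaling they were 1 and 0 against MRC5, and 7 genes were higher in DMS153 than in H209 without a fold minimum. Signs turned as follows. ANXA7 in DMS153 was -0.41 after median ratio and -0.37 after TPM scaling, and in H209 0.0943 after TPM scaling and 0.11 without small RNA and mitochondrial genes. After quantile normalization ANXA9 was -0.22 and -0.0038 and S100A5 in H209 -0.27. S100A4 in DMS153 was 0.14 without small RNA and mitochondrial genes and -0.15 to 0.00833 with single libraries left out. Between DMS153 and H209, TPM scaling gave ANXA11 -0.12, ANXA4 -0.36, ANXA5 -0.0362, ANXA7 -0.46, S100A13 -0.20, S100A4 -0.0166 and S100A6 -0.21, and median ratio scaling gave S100A16 0.0043. With single libraries left out S100A14 ranged from -0.29 to 0.0881, S100A16 from -0.10 to 0.0613 and S100A3 from -0.0278 to 0.19. The cause of these turns was not tested. ANXA4 has no value without genes of failed status. A fit with the replicate block gave the same counts, 13 and 2, 12 and 2, and 6 and 1 lower and higher. Same-numbered libraries of different lines deviated together at correlations of -0.01 to 0.12, and differently numbered ones at -0.12 to 0.05. Deviations from a mean of 2 or 3 libraries are tied to each other, so these values cannot tell whether the numbers pair the samples. Over all genes, counts moved by over 1.5 times after quantile normalization (higher against MRC5, 4242 beside 6489 in DMS153 and 4086 beside 6300 in H209), after median ratio scaling (lower in H209, 4323 beside 2839), with TPM scaling (lower in DMS153 than in H209, 6319 beside 2547), and without a fold minimum (10711 higher and 5817 lower, 10679 and 5159, and 6588 and 7431). With only domains scored at or above their list's median, the cluster held 0 domains in DMS153 and 1 in MRC5 (2 each as reported), and 0 DMS153 domains and boundaries had a counterpart in MRC5 or H209, and 0 MRC5 boundaries one in DMS153. With 50% reciprocal overlap 2 DMS153 domains had a counterpart in MRC5, and at 80 kb 2 MRC5 boundaries were shared with DMS153 and 2 with H209. S100A3, S100A5, S100A14 and ANXA9 were measured at low levels, which limits their values.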
